A study of Homo sapiens with 16 samples.

Results

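The 34 genes described here are direct targets of the tumour suppressor p53, taken by symbol from a given list of names and matched to the gene names in 6 deposited tables of differential expression. Of the 34 genes, 33 were listed in at least 1 table and 30 in all 6, out of 19315 genes listed in at least 1 table and 12069 listed in all 6. SPATA18 was listed in none, EDA2R in no HCT116 table, and TNFRSF10A and ABCA12 in no U2OS table.

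The study asked what the transcription factors A-MYB (gene MYBL1) and B-MYB (gene MYBL2) do in the mitotic cell cycle, and its title states that the first can take over from the second. Small interfering RNA (siRNA), which directs the degradation of a matching messenger RNA, was transfected into the human colorectal carcinoma line HCT116 and the human osteosarcoma line U2OS, and total RNA was sequenced from both ends of each fragment 48 h later. Each line had 4 groups, namely a non-targeting siRNA (siCtrl), siRNA against MYBL1 (siMYBL1), siRNA against MYBL2 (siMYBL2), and both siRNAs together (double knockdown). The 8 groups of 2 libraries made 16 libraries in all, and the labels call the 2 of a group biological replicates. No group was treated with a DNA-damaging drug according to the labels, all groups were transfected, and the sources used here do not give the number and sequences of the siRNAs.

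p53 is a transcription factor that MDM2 keeps low in unstressed cells by ubiquitination. When the cell is stressed, p53 binds a response element built of a pair of half-sites and switches on genes that halt the cell cycle, repair DNA, shift metabolism or kill the cell, and it also switches on its own inhibitors MDM2 and PPM1D. HCT116 and U2OS are both widely used to study these targets.

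The response element is shown first because it is the feature that the members share by definition. In RefSeq promoter windows (GRCh38.p14) of 300 bases, 250 before to 50 after an annotated start, both strands were searched for 2 adjoining half-sites of 10 bases each. A half-site is 3 purines, C, a pair of A or T bases, G, and 3 pyrimidines. Up to 3 mismatches were allowed in the 20 bases, and the 4 core C and G bases had to be present. Of the 28 members with a window, 8 held such a match (28.6%), against 373 of all 27305 symbols (1.37%). The matches are printed from 5′ to 3′ with the 4-base core of each half-site in capitals.
FAS: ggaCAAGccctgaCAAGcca
MDM2: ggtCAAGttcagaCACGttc
DDB2: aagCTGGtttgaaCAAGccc
AEN: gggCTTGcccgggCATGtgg
SESN1: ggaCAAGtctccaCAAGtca
FDXR: gggCAGGagcgggCTTGccc
RPS27L: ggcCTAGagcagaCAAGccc
PMAIP1: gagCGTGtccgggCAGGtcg
The DDB2 match had 1 mismatch, those of FAS, MDM2 and AEN had 2, and those of SESN1, FDXR, RPS27L and PMAIP1 had 3. The FAS match lay at chr10:88991309-88991328 on the plus strand, 122 bases before an annotated start, and the SESN1 match at chr6:109009018-109009037 on the minus strand, 49 bases before one. The MDM2 match at chr12:68808923-68808942 on the plus strand fell in 2 windows, 94 and 101 bases before their starts. The FDXR match lay at chr17:74872996-74873015 and the RPS27L match at chr15:63157527-63157546, both on the minus strand, and the PMAIP1 match at chr18:59899811-59899830 on the plus strand. The DDB2 and AEN matches lay at chr11:47214969-47214988 and chr15:88621306-88621325 on the plus strand. Set against the gene positions in the tables, 6 matches lay inside their gene (FAS, MDM2, DDB2, SESN1, FDXR and RPS27L), so the annotated start after them is not the outermost end of the gene, and the 2 of AEN and PMAIP1 lay outside. A match is a run of letters and not a shown binding site, and a window without one says only that these letters were not found there. As the values below show, 6 of the 8 genes with a match rose in the HCT116 double knockdown (FAS, MDM2, SESN1, FDXR, RPS27L and PMAIP1) and 3 in the U2OS double knockdown (FAS, SESN1 and FDXR), beside 68.8% and 51.6% of all listed members. With 8 genes, no difference between members with and without a match is read from these counts. The DDB2 sequence, with the fewest mismatches of the 8, belonged to a gene called in neither line.

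The tables hold group comparisons and no value per library, so the depth of each library is not known and the spread between the 2 libraries of a group is seen only through the standard error (SE). The base mean, which is the mean normalized count of a gene over the 4 libraries of a comparison, summed to between 17441617 and 19826741 over a table. At a base mean of at least 100, genes had a median SE of 0.187 to 0.224 on the log2 scale, and the listed members had median SEs of 0.188 to 0.233. In the authors' deposited tables, MYBL1 fell to 31.4% and 27.8% of siCtrl in the HCT116 siMYBL1 and double knockdowns and to 50.7% and 43.5% in the U2OS ones. MYBL2 fell to 9.05% and 9.92% in the HCT116 siMYBL2 and double knockdowns and to 4.53% and 4.34% in the U2OS ones, by the authors' deposited tables. The labelled cell types were checked on the base means of an epithelial and a mesenchymal marker. In the siMYBL2 comparisons of the authors' deposited tables, EPCAM stood at 5529 in HCT116 and 197 in U2OS, and VIM at 64.9 and 23356. Of 10 epithelial markers, 7 were listed there in HCT116 and 4 in U2OS, and of 10 mesenchymal and osteoblast markers 6 and 8. The levels of the other markers are not given here. The epithelial markers VIL1, CDH17 and LGALS4 were listed in no table, and COL1A2 and TWIST1 were not listed in U2OS.

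In HCT116, 22 p53 targets were called higher after the double knockdown, 2 after siMYBL2 alone and 0 after siMYBL1 alone. A gene is called here when its adjusted p in the authors' Wald test was under 0.05. After siMYBL1, 0 of 32 listed members were called in either direction by the authors' DESeq2 Wald test (2 higher and 2 lower at an unadjusted p under 0.05), against 0.115% of all genes called higher and 0.144% called lower. After siMYBL2, 2 of 32 (BTG2 and CDKN1A) were called higher and 0 lower, against 0.291% higher and 0.837% lower among all genes. In the double knockdown 22 of 32 were called higher and 0 lower, against 2.82% higher and 4.12% lower among all genes. The unadjusted p was under 0.05 for 6 higher and 1 lower after siMYBL2 and for 27 higher and 0 lower in the double knockdown. At that p, 432 of 17323, 450 of 13387 and 1062 of 12885 genes were higher after siMYBL1, siMYBL2 and the double knockdown. The genes lower at that p numbered 359, 630 and 1328. The median log2 fold change of the listed members was 0.01, 0.24 and 0.67 in that order, beside medians of 0.00, -0.02 and -0.02 over all genes.

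In U2OS, 4 members were called higher after siMYBL1 and 16 after the double knockdown, the latter at a median close to that of HCT116. After siMYBL1, 4 of 31 listed members were called higher and 0 lower, against 3.44% higher and 2.27% lower among all genes. After siMYBL2, 1 of 31 was called higher and 0 lower, against 1.69% and 3.51% among all genes. In the U2OS double knockdown 16 of 31 were called higher and 0 lower, against 6.55% and 6.06% among all genes. The unadjusted p of the Wald test was under 0.05 for 14, 5 and 21 of the 31, in that order, all higher. Among all genes 1460 of 14763, 943 of 15478 and 2014 of 16803 were higher at that p, and 1029, 1269 and 1862 lower. The medians of the listed members were 0.40, 0.27 and 0.66, beside 0.02, 0.01 and 0.01 over all genes. The 3 comparisons of a line share their siCtrl libraries and are therefore not independent of each other.

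**Figure D1:**
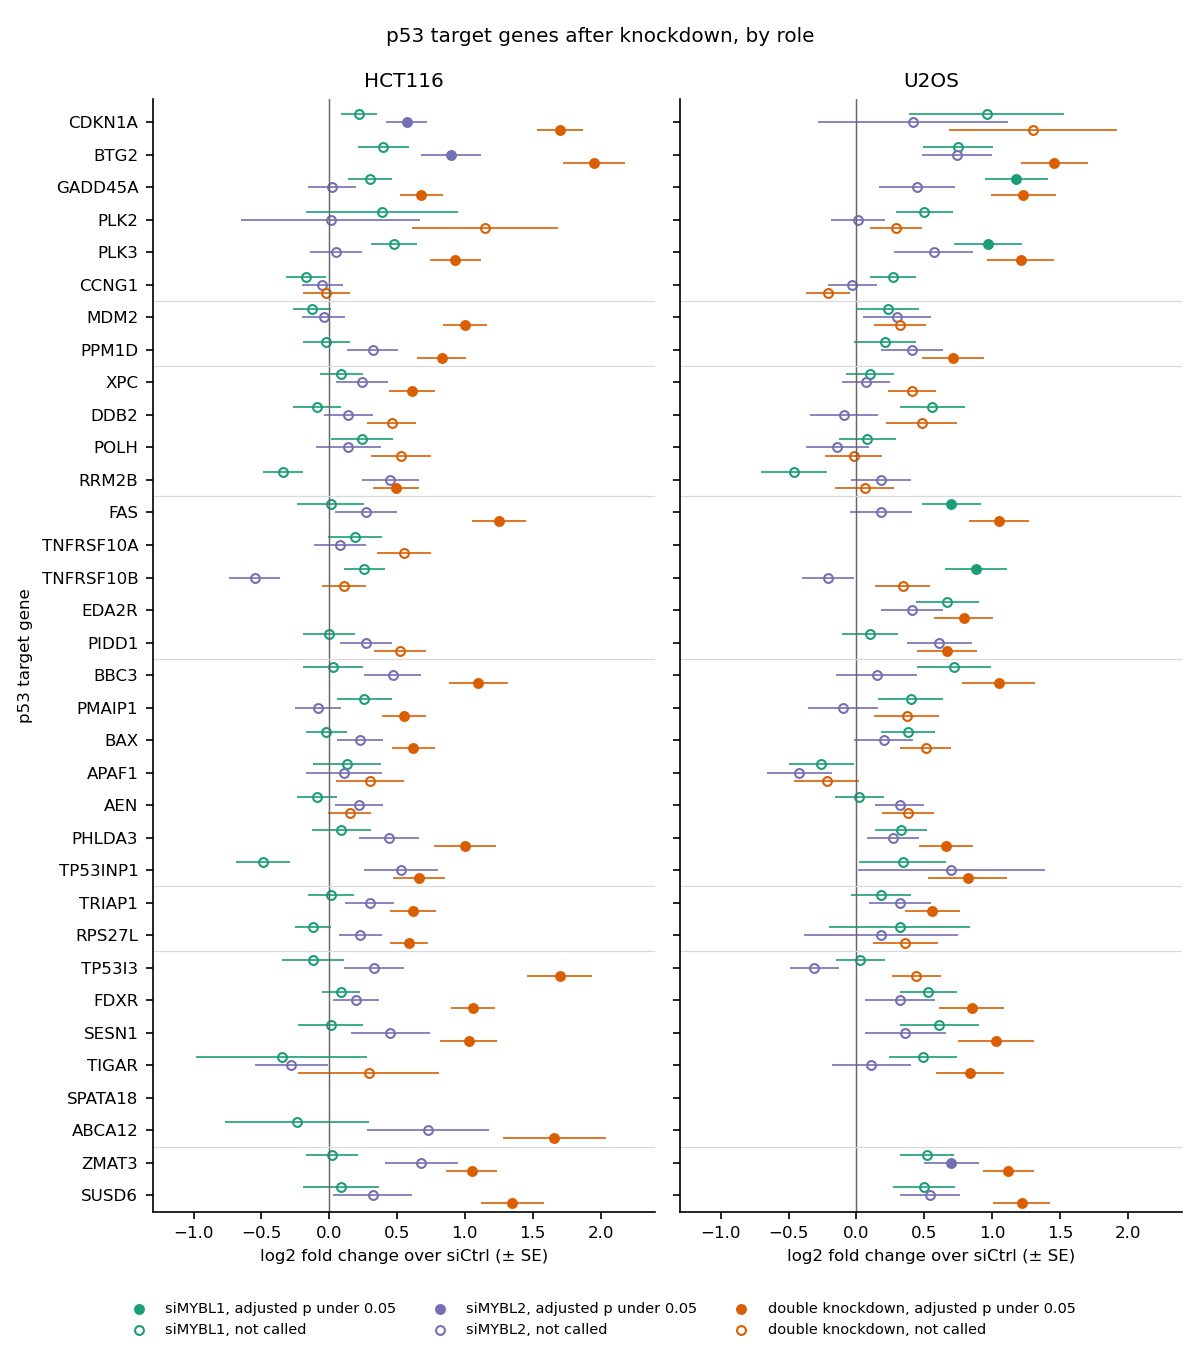
Log2 fold change over siCtrl (horizontal axis, bars are ± SE) of each p53 target (vertical axis, grouped by role) after siMYBL1, siMYBL2 and the double knockdown, with HCT116 on the left and U2OS on the right. Filled points have an adjusted p under 0.05: 22 double-knockdown points are filled in HCT116 and 16 in U2OS, all to the right of 0, while single knockdowns have 0 and 2 filled points in HCT116 and 4 and 1 in U2OS.

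The growth arrest genes BTG2 and CDKN1A had the smallest adjusted p values of this group in HCT116. CDKN1A encodes p21, the inhibitor of cyclin-dependent kinases through which p53 stops cells in G1, and it lies at chr6:36676460-36687337 in the tables (hg38). From the base mean and fold change of the authors' deposited tables, its implied mean level in HCT116 was 4261 normalized counts in siCtrl and 4979 after siMYBL1, 4323 and 6404 in the siMYBL2 table, and 4535 and 14709 in the double-knockdown table. The level after the double knockdown thus stood above both single knockdowns. The 3 estimates of the siCtrl level rest on the same libraries, so their closeness is no separate check. CDKN1A was also called higher after siMYBL2 alone, at 0.57 (SE 0.15, adjusted p = 0.023) per the authors' deposited table. The log2 fold change of the double knockdown per the authors' deposited table was 1.70 (SE 0.17, 3.24-fold, adjusted p = 8.53e-21).

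CDKN1A in U2OS is less certain. Its implied levels there, from the authors' deposited tables, were 3598 and 6984 for siCtrl and siMYBL1, 3670 and 4911 for siMYBL2, and 3632 and 8953 for the double knockdown. The authors' deposited tables give its log2 fold changes as 0.96 (SE 0.57), 0.42 (SE 0.70) and 1.30 (SE 0.62, 95% interval 0.08 to 2.52, adjusted p = 0.179). These SEs are well above the member medians of 0.227, 0.233 and 0.219 in the same tables, and CDKN1A was not called in any U2OS comparison. Other members with wide errors in U2OS were RPS27L (SE 0.52 and 0.57 in the single knockdowns) and TP53INP1 (SE 0.69 after siMYBL2), in HCT116 PLK2 (SE 0.54 to 0.66), TIGAR (0.63 and 0.52 in the siMYBL1 and double knockdowns) and ABCA12 (0.53 after siMYBL1), per the authors' deposited tables. The exons of CDKN1A are overlapped on the opposite strand by DINOL, a long noncoding RNA, and the sources used here do not say whether the counting used strand.

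BTG2, an antiproliferative gene at chr1:203305491-203309602, had the highest log2 fold change of all members in the double knockdown of each line. From the authors' deposited tables, its implied levels in HCT116 were 882 and 1161 normalized counts for siCtrl and siMYBL1, 901 and 1686 for siMYBL2, and 955 and 3692 for the double knockdown. The authors' deposited tables put the siMYBL2 change at 0.90 (SE 0.22, adjusted p = 0.00494), which was called, and the last change at 1.95 (SE 0.23, adjusted p = 3.56e-15). In U2OS the implied levels were 945 and 1594, 993 and 1657, and 960 and 2639, from the authors' deposited tables. Only the U2OS double knockdown was called, at 1.46 (SE 0.25, adjusted p = 3.7e-07), and the single knockdowns at 0.75 (adjusted p = 0.0562) and 0.74 (adjusted p = 0.0797) missed the threshold per the authors' deposited tables.

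GADD45A, which binds PCNA and takes part in the G2 checkpoint and in repair, was called higher in 3 comparisons. In U2OS it rose after siMYBL1 alone, from an implied 779 to 1764 normalized counts, with a log2 fold change of 1.18 (SE 0.23, adjusted p = 6.89e-05) per the authors' deposited table. The U2OS double knockdown was at much the same level, from 791 to 1856, with 1.23 (SE 0.24, adjusted p = 6.69e-06) per the authors' deposited table. In HCT116, siMYBL1 gave 0.30 (SE 0.16) and the double knockdown 0.68 (SE 0.16, adjusted p = 0.00107) by the authors' deposited tables. The difference between the lines after siMYBL1 did not pass the test given further on.

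PLK3, a stress-responsive polo-like kinase, was called in the same 3 comparisons as GADD45A. It rose in U2OS after siMYBL1 (0.97, SE 0.25, adjusted p = 0.00598) and after the double knockdown (1.21, SE 0.25, adjusted p = 3.15e-05) and in HCT116 after the double knockdown (0.93, SE 0.19, adjusted p = 6.89e-05), by the authors' deposited tables. PLK2, its relative, was not called anywhere: in the HCT116 double knockdown the authors' deposited table gives 1.15 with an SE of 0.54 (adjusted p = 0.215). CCNG1, which encodes cyclin G1, is the member of this group without an upward estimate in either double knockdown (-0.02, SE 0.17 in HCT116 and -0.21, SE 0.16 in U2OS, per the authors' deposited tables). Among the 6 growth arrest genes, 4 were called higher in the HCT116 double knockdown and 3 in the U2OS one, where 2.82% and 6.55% of all genes were.

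**Figure D2:**
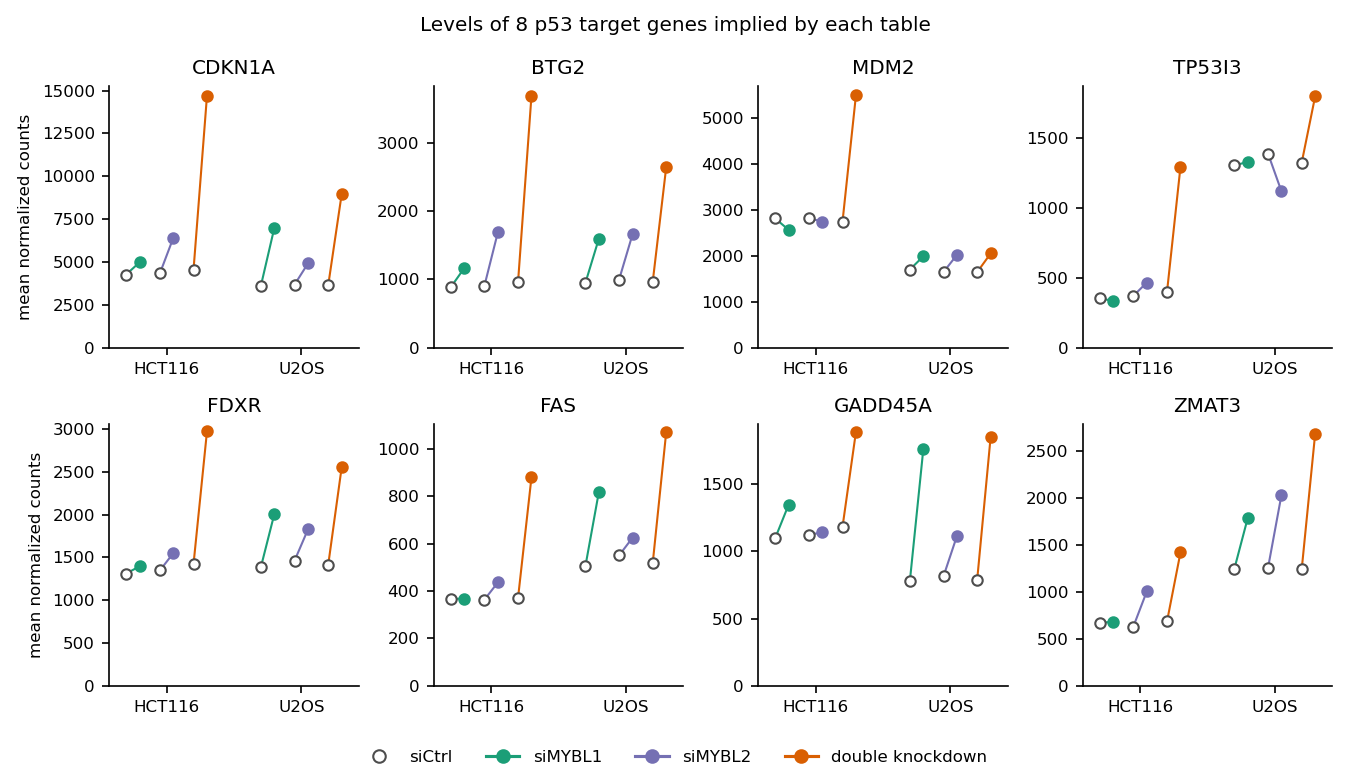
Mean level in normalized counts (vertical axis, starting at 0 in each panel) implied by the base mean and fold change of each table for 8 p53 targets, in HCT116 and U2OS, with an open point for siCtrl joined to a filled point for the knockdown of the same table. The axes differ between panels and no error is drawn because the tables give no value per library; CDKN1A goes from 4535 to 14709 in the HCT116 double knockdown, and TP53I3 starts higher in U2OS than in HCT116.

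Both feedback inhibitors of p53 were called higher in the HCT116 double knockdown, and PPM1D also in the U2OS one. MDM2 (chr12:68808177-68845544) is the ubiquitin ligase that degrades p53, and the sequence printed above lies before 2 of its annotated starts. Its implied levels in HCT116 were 2812 and 2562 normalized counts for siCtrl and siMYBL1, 2818 and 2742 for siMYBL2, and 2743 and 5503 for the double knockdown, from the authors' deposited tables. Neither single knockdown thus stood above siCtrl, while the double knockdown was at 1.0 (SE 0.16, 2.01-fold, adjusted p = 1.25e-08) per the authors' deposited table. In U2OS the 3 comparisons gave 0.23 (SE 0.23), 0.30 (SE 0.25) and 0.32 (SE 0.19, adjusted p = 0.324) by the authors' deposited tables, none of them called. CPM, which overlaps MDM2 on the opposite strand, had a base mean of 49.7 and a log2 fold change of -0.03 (SE 0.53) for the HCT116 double knockdown per the authors' deposited table. PPM1D, the phosphatase WIP1 that reverses activating phosphorylation of p53, rose in both double knockdowns, by 0.83 (SE 0.18, adjusted p = 0.000171) in HCT116 cells and 0.71 (SE 0.23, adjusted p = 0.0185) in U2OS, per the authors' deposited tables. The difference between the lines passed for neither gene, at -0.69 for MDM2 (adjusted p = 0.181) and -0.12 for PPM1D (95% interval -0.68 to 0.45, adjusted p = 0.987).

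Of the 4 DNA repair genes, 2 were called higher in the HCT116 double knockdown and 0 in the U2OS one, where 2.82% and 6.55% of all genes were. The difference between the lines passed for 0 of the 4 by the test given further on. XPC and DDB2 recognise ultraviolet lesions for nucleotide excision repair, POLH is a polymerase that copies across such lesions, and RRM2B is the p53-inducible subunit of ribonucleotide reductase. In the HCT116 double knockdown, XPC rose by 0.61 (SE 0.17, adjusted p = 0.0118) and RRM2B by 0.49 (SE 0.17, adjusted p = 0.0446) per the authors' deposited table. LSM3, which overlaps XPC on the opposite strand, had a base mean of 1510 there and a log2 fold change of -0.26 (SE 0.17), per the authors' deposited table. DDB2 at 0.46 (SE 0.18, adjusted p = 0.0959) and POLH at 0.53 (SE 0.22, adjusted p = 0.141) did not pass there, by the authors' deposited table. In U2OS 0 of the 4 genes passed the DESeq2 Wald test in the double knockdown, with XPC alone at an unadjusted p under 0.05 (0.41, SE 0.18) per the authors' deposited table. RRM2B stood below siCtrl after siMYBL1 in both lines without being called, at -0.34 (SE 0.15) in HCT116 cells and -0.46 (SE 0.24) in U2OS, per the authors' deposited tables.

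Among the death receptors, FAS rose in both lines. FAS is the receptor for Fas ligand, and its sequence match is printed above. Its implied levels in HCT116 were 366 and 368 normalized counts for siCtrl and siMYBL1, 363 and 436 for siMYBL2, and 370 and 881 for the double knockdown, from the authors' deposited tables. In U2OS they were 504 and 818, 550 and 625, and 517 and 1070, from the authors' deposited tables. The double-knockdown changes were 1.25 (SE 0.20, adjusted p = 8.13e-08) in HCT116 cells and 1.05 (SE 0.22, adjusted p = 5.52e-05) in U2OS, and siMYBL1 in U2OS gave 0.70 (SE 0.22, adjusted p = 0.0372), per the authors' deposited tables. FAS shares exon sequence on the opposite strand with ACTA2, which encodes smooth muscle actin. ACTA2 itself rose, by 2.32 (SE 0.39, base mean 177) in the HCT116 and by 2.52 (SE 0.36, base mean 158) in the U2OS double knockdown, and by 1.51 (SE 0.43) after siMYBL1 in U2OS, per the authors' deposited tables. Its part in the FAS values was not tested.

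Of the TRAIL receptors, TNFRSF10B was called in 1 comparison and TNFRSF10A in none. TNFRSF10B, which encodes the TRAIL receptor DR5, rose after siMYBL1 in U2OS (0.88, SE 0.23, adjusted p = 0.00541) and was not called in the U2OS double knockdown (0.34, SE 0.20), by the authors' deposited tables. In HCT116 the authors' deposited tables give it 0.26 (SE 0.15) after siMYBL1, -0.55 (SE 0.19, adjusted p = 0.142) after siMYBL2 and 0.11 (SE 0.16) after the double knockdown. TNFRSF10B therefore has estimates of opposite sign for the 2 single knockdowns in each line, since siMYBL2 in U2OS gave -0.21 (SE 0.19) per the authors' deposited table. The value of -0.55 is the lowest of any member in any comparison with siCtrl. RHOBTB2 overlaps TNFRSF10B on the opposite strand. It rose in U2OS by 0.64 (SE 0.20) after siMYBL2 and 0.61 (SE 0.20) in the double knockdown, per the authors' deposited tables. After siMYBL1 in U2OS RHOBTB2 stood at 0.43 (SE 0.21), and its part in the TNFRSF10B values was not tested. TNFRSF10A, which encodes DR4, was listed in HCT116 alone, with 0.55 (SE 0.20, adjusted p = 0.0666) in the double knockdown of the authors' deposited table.

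The other genes of extrinsic death were PIDD1 and EDA2R. PIDD1, a death-domain scaffold that activates caspase-2, rose in the U2OS double knockdown (0.67, SE 0.22, adjusted p = 0.0216) and stood at 0.52 (SE 0.19, adjusted p = 0.0654) in the HCT116 one, by the authors' deposited tables. RPLP2, which overlaps PIDD1 on the opposite strand, had a base mean of 8470 in the U2OS double knockdown. Its log2 fold change there was -0.07 (SE 0.17) per the authors' deposited table, and its part in the PIDD1 values was not tested. EDA2R, a receptor of the tumour necrosis factor family, was listed in U2OS alone and rose there by 0.79 (SE 0.22, adjusted p = 0.00432) in the double knockdown of the authors' deposited table. After siMYBL1 it stood at 0.67 (SE 0.23, adjusted p = 0.0522) per the authors' deposited table.

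Genes of the mitochondrial death pathway rose in part, and BBC3 rose the most. BBC3 encodes PUMA and PMAIP1 encodes NOXA, both BH3-only proteins that release BAX to open the outer mitochondrial membrane. BBC3 went from an implied 451 to 965 normalized counts in the HCT116 double knockdown and from 439 to 911 in the U2OS one, from the authors' deposited tables. Its log2 fold changes there were 1.1 (SE 0.22, adjusted p = 6.16e-05) and 1.05 (SE 0.27, adjusted p = 0.00211), and no single knockdown was called, per the authors' deposited tables. The estimates of the 2 lines lay within 1 SE of each other. PMAIP1 rose in HCT116 by 0.55 (SE 0.16, adjusted p = 0.0123) and stood at 0.37 (SE 0.24) in U2OS per the authors' deposited tables.

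BAX showed the same split around the threshold, with 0.62 (SE 0.16, adjusted p = 0.00289) in the HCT116 and 0.51 (SE 0.19, adjusted p = 0.0574) in the U2OS double knockdown of the authors' deposited tables. PHLDA3, which restrains AKT, rose by 1.0 (SE 0.23, adjusted p = 0.000703) and 0.66 (SE 0.20, adjusted p = 0.0119), per the authors' deposited tables. TP53INP1, a stress protein of autophagy and cell death, rose by 0.66 (SE 0.19, adjusted p = 0.0112) in HCT116 cells and by 0.82 (SE 0.29, adjusted p = 0.0448) in U2OS cells, while siMYBL1 alone gave -0.49 (SE 0.20, adjusted p = 0.711) in HCT116, per the authors' deposited tables. APAF1, the core of the apoptosome, and the nuclease gene AEN were called in no comparison. The sequence match of AEN printed above was thus not accompanied by a called change, with 0.15 (SE 0.16) and 0.38 (SE 0.19) in the 2 double knockdowns of the authors' deposited tables. Of the 7 genes of this group, 5 were called higher in the HCT116 and 3 in the U2OS double knockdown, where 2.82% and 6.55% of all genes were.

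The 2 members that favour survival of stressed cells had small changes. TRIAP1, a small inhibitor of apoptosis, rose by 0.62 (SE 0.17, adjusted p = 0.00696) in HCT116 cells and 0.56 (SE 0.20, adjusted p = 0.0437) in U2OS, in the double knockdowns of the authors' deposited tables. RPS27L, a paralogue of the ribosomal protein gene RPS27, rose in HCT116 (0.59, SE 0.14, adjusted p = 0.00179) and stood at 0.36 (SE 0.24) in U2OS, by the authors' deposited tables. Counting that splits reads between such close copies could affect RPS27L.

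The metabolic and redox targets included the 1 member whose response differed between the lines by the test given further on. TP53I3 (chr2:24077433-24085861) encodes PIG3, a quinone oxidoreductase linked to oxidative stress in p53-driven death. Its implied levels in HCT116 were 358 and 330 normalized counts for siCtrl and siMYBL1, 370 and 466 for siMYBL2, and 399 and 1296 for the double knockdown, from the authors' deposited tables. In U2OS they were 1306 and 1330, 1390 and 1119, and 1325 and 1801, from the authors' deposited tables. The siCtrl level in U2OS was thus about the level reached in HCT116 after the double knockdown, though the tables were normalized separately and the levels of the lines were not tested against each other. FAM228B, which overlaps TP53I3 on the opposite strand, had a base mean of 48.3 and a log2 fold change of 0.29 (SE 0.57) in HCT116 per the authors' deposited table. The double-knockdown changes of TP53I3 were 1.70 (SE 0.24, adjusted p = 1.06e-10) in HCT116 cells and 0.44 (SE 0.18, adjusted p = 0.0886) in U2OS, per the authors' deposited tables.

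FDXR, the mitochondrial ferredoxin reductase, and SESN1, a sestrin that restrains mTORC1, rose in both double knockdowns. FDXR went from an implied 1422 to 2974 normalized counts in HCT116 and from 1412 to 2552 in U2OS, from the authors' deposited tables. The corresponding changes were 1.06 (SE 0.16, adjusted p = 4.94e-09) and 0.85 (SE 0.24, adjusted p = 0.00424) per the authors' deposited tables. SESN1 had the same estimate in both lines, 1.03 (SE 0.21, adjusted p = 8.45e-05) in HCT116 cells and 1.03 (SE 0.28, adjusted p = 0.00347) in U2OS, per the authors' deposited tables.

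TIGAR, which lowers glycolytic flux by acting on fructose-2,6-bisphosphate, rose in U2OS by 0.84 (SE 0.25, adjusted p = 0.00852) and was at 0.29 in HCT116 with an SE of 0.52, in the double knockdowns of the authors' deposited tables. ABCA12, a lipid transporter, was listed in HCT116 alone and rose there by 1.66 (SE 0.38, adjusted p = 0.000487), from an implied 64 to 202 normalized counts, per the authors' deposited table. It was the listed member with the lowest base mean in that table (133.2), so its level rests on the fewest reads.

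The last 2 members, ZMAT3 and SUSD6, rose in both double knockdowns. ZMAT3 encodes a zinc-finger RNA-binding protein that acts on splicing and RNA stability. Its implied levels in U2OS were 1243 and 1787 normalized counts for siCtrl and siMYBL1, 1254 and 2031 for siMYBL2, and 1237 and 2681 for the double knockdown, from the authors' deposited tables. It was the single member called after siMYBL2 in U2OS, at 0.70 (SE 0.20, adjusted p = 0.0145), and the U2OS double knockdown was at 1.12 (SE 0.19, adjusted p = 4.94e-07), per the authors' deposited tables. In HCT116 ZMAT3 was at 0.68 (SE 0.27, adjusted p = 0.313) with siMYBL2 and 1.05 (SE 0.19, adjusted p = 1.91e-06) with the double knockdown, per the authors' deposited tables. SUSD6, a sushi-domain membrane protein, rose by 1.35 (SE 0.23, adjusted p = 2.89e-07) in HCT116 cells and 1.22 (SE 0.21, adjusted p = 3.96e-07) in U2OS, in the double knockdowns of the authors' deposited tables.

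Whether the double knockdown exceeded each single knockdown was tested as the difference of the deposited log2 fold changes, with the Benjamini-Hochberg adjustment over all genes in both tables. Against siMYBL1 in HCT116, 12 of 32 members were called higher, against 0.163% of all genes (21 of 12885). At an adjusted p under 0.01, 6 members were called, where 114 of 12885 genes were called in either direction. The members called were CDKN1A, TP53I3, MDM2, BTG2, FDXR, TP53INP1, ZMAT3, FAS, RRM2B, RPS27L, SUSD6 and PPM1D. The differences ran from 0.70 (95% interval 0.32 to 1.09) for RPS27L to 1.82 (1.17 to 2.46) for TP53I3 among those called. Members thus made up 12 of the 21 genes of the whole table that passed upward.

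Against siMYBL2 in HCT116, 4 of 32 members were called higher, against 0.101% of all genes (13 of 12873). CDKN1A differed by 1.13 (95% interval 0.68 to 1.58, adjusted p = 0.000308) and MDM2 by 1.04 (0.61 to 1.48, adjusted p = 0.000919). TP53I3 differed by 1.37 (0.73 to 2.0, adjusted p = 0.00684) and FDXR by 0.86 (0.40 to 1.32, adjusted p = 0.0411). BTG2 at 1.05 (0.43 to 1.66, adjusted p = 0.119) did not pass. With the shared siCtrl libraries cancelled in the error, the counts became 19 against siMYBL1 and 11 against siMYBL2. All genes called in either direction were then 545 of 12885 and 237 of 12873. This alternative assumes that siCtrl and knockdown libraries contribute equally to each squared SE.

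In U2OS, 0 of 31 members were called in the same test against siMYBL1, and 0 of 31 against siMYBL2, where 0.0949% and 0.258% of all genes were called higher. At an unadjusted p under 0.05, 2 members were higher and 1 lower against siMYBL1, and 7 were higher against siMYBL2. With the shared siCtrl cancelled, 1 and 4 members were called, where 822 of 14760 and 642 of 15476 genes were called in either direction. The intervals were wide: SUSD6 differed from siMYBL1 alone by 0.72 (95% interval 0.11 to 1.33) and CDKN1A by 0.34 (-1.32 to 2.0). GADD45A, which rose after siMYBL1, differed from it by 0.05 (-0.60 to 0.70), and TNFRSF10B by -0.53 (-1.13 to 0.06). The largest member differences from siMYBL2 alone were 0.90 (0.11 to 1.70) for BBC3, 0.88 (-0.95 to 2.72) for CDKN1A and 0.87 (0.25 to 1.49) for FAS.

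**Figure D3:**
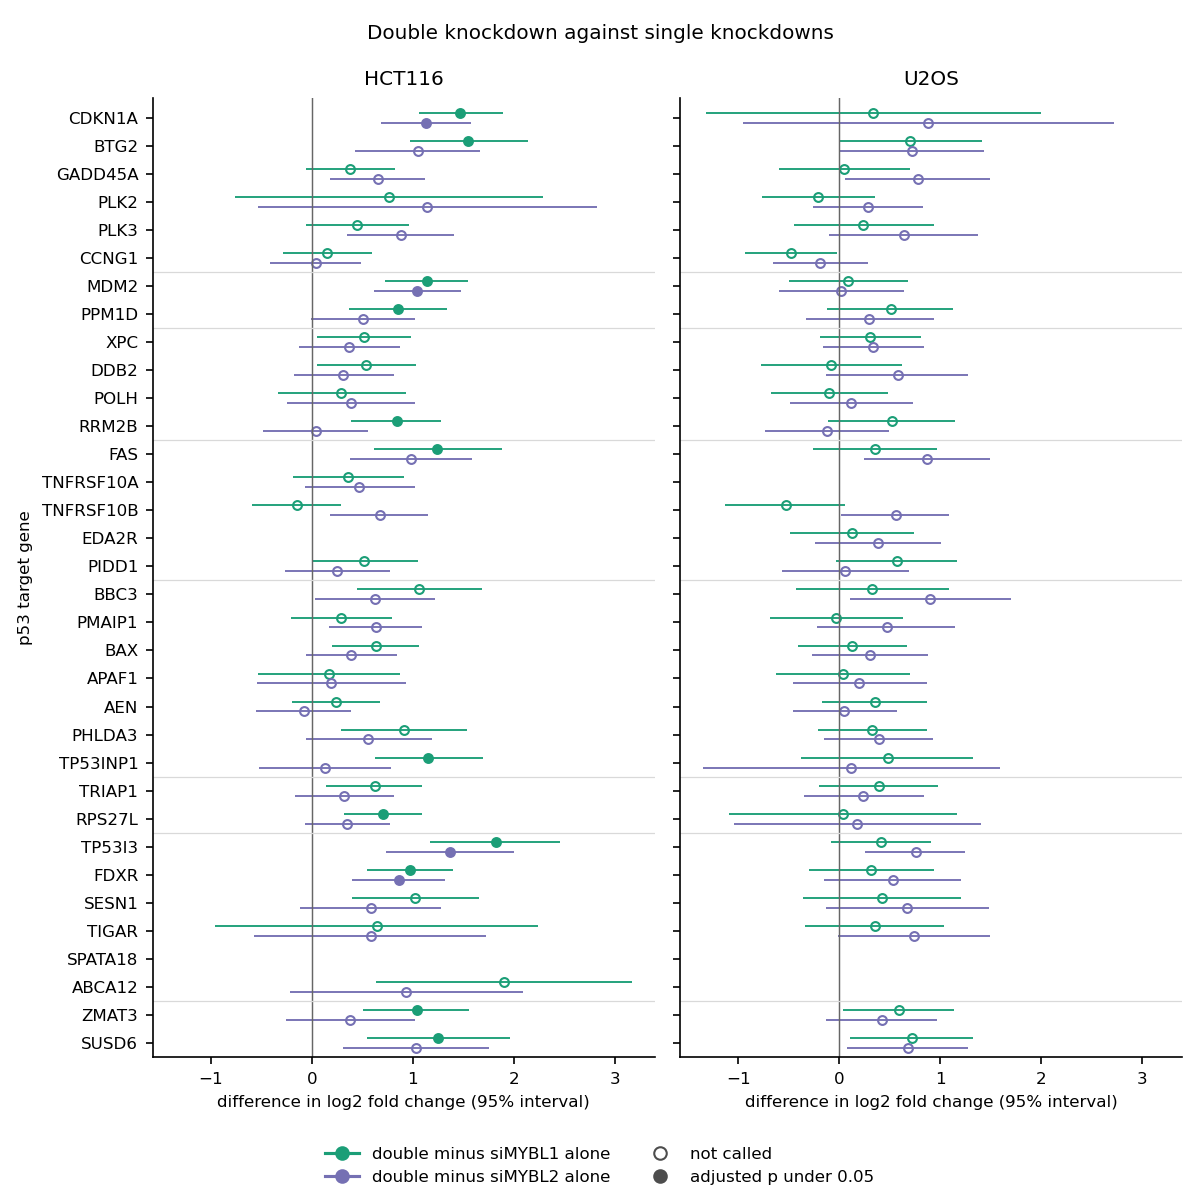
Difference in log2 fold change between the double knockdown and each single knockdown (horizontal axis, bars are 95% intervals) for each p53 target, with HCT116 on the left and U2OS on the right. Filled points have an adjusted p under 0.05: 12 against siMYBL1 and 4 against siMYBL2 in HCT116, and 0 in U2OS.

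The double knockdown was also compared with the sum of both single changes on the log2 scale. In HCT116, MDM2 exceeded the sum by 1.18 (95% interval 0.66 to 1.70, adjusted p = 0.00809), and 1 of 32 members was called, against 0.14% of all genes in either direction. MDM2 was the only gene above the sum among the 18 called of 12873, the other 17 being below it. TP53I3 exceeded the sum by 1.48 (0.70 to 2.27, adjusted p = 0.114) and CDKN1A by 0.91 (0.39 to 1.42, adjusted p = 0.248), which did not pass. All 32 listed members had an estimate above 0 in HCT116 (median 0.44, beside -0.02 over all genes); all of these estimates use the same siCtrl libraries. In U2OS 0 of 31 members passed, against 0.211% of all genes, 1 had an unadjusted p under 0.05 (TP53I3), and the median was 0.02.

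The double-knockdown responses of the 2 lines were set against each other directly. Of the 30 members listed in both, 13 were called higher in both lines: BBC3, BTG2, FAS, FDXR, GADD45A, PHLDA3, PLK3, PPM1D, SESN1, SUSD6, TP53INP1, TRIAP1 and ZMAT3. Another 8 were called in HCT116 alone (BAX, CDKN1A, MDM2, PMAIP1, RPS27L, RRM2B, TP53I3 and XPC), 2 in U2OS alone (PIDD1 and TIGAR), and 7 in neither. As shares of the 30 these were 43.3% in both, 26.7% in HCT116 alone and 6.67% in U2OS alone, where 1.16%, 1.57% and 5.52% of the 12388 genes listed in both tables were called higher. Being called in one line and not the other does not show a difference, and the test of the difference itself called TP53I3 alone. Its change in U2OS was lower by 1.26 on the log2 scale (difference -1.26, 95% interval -1.84 to -0.68, adjusted p = 0.00595), and 1.27% of all genes were called in either direction. MDM2 had a difference of -0.69 (-1.17 to -0.21, adjusted p = 0.181) and CDKN1A one of -0.40 (-1.66 to 0.87), both not called.

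For the single knockdowns, 0 of 30 members differed between lines by the same test, where 0.0594% of all genes were called for siMYBL1 and 0.215% for siMYBL2. At an unadjusted p under 0.05, 6 members were higher in U2OS for siMYBL1, with GADD45A at 0.88 (95% interval 0.33 to 1.44, adjusted p = 0.296), and 1 was lower for siMYBL2, TP53I3 at -0.65 (-1.21 to -0.08). The lines also differ in how far MYBL1 was reduced, as given above, and the part of this in the differences was not tested.

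**Figure D4:**
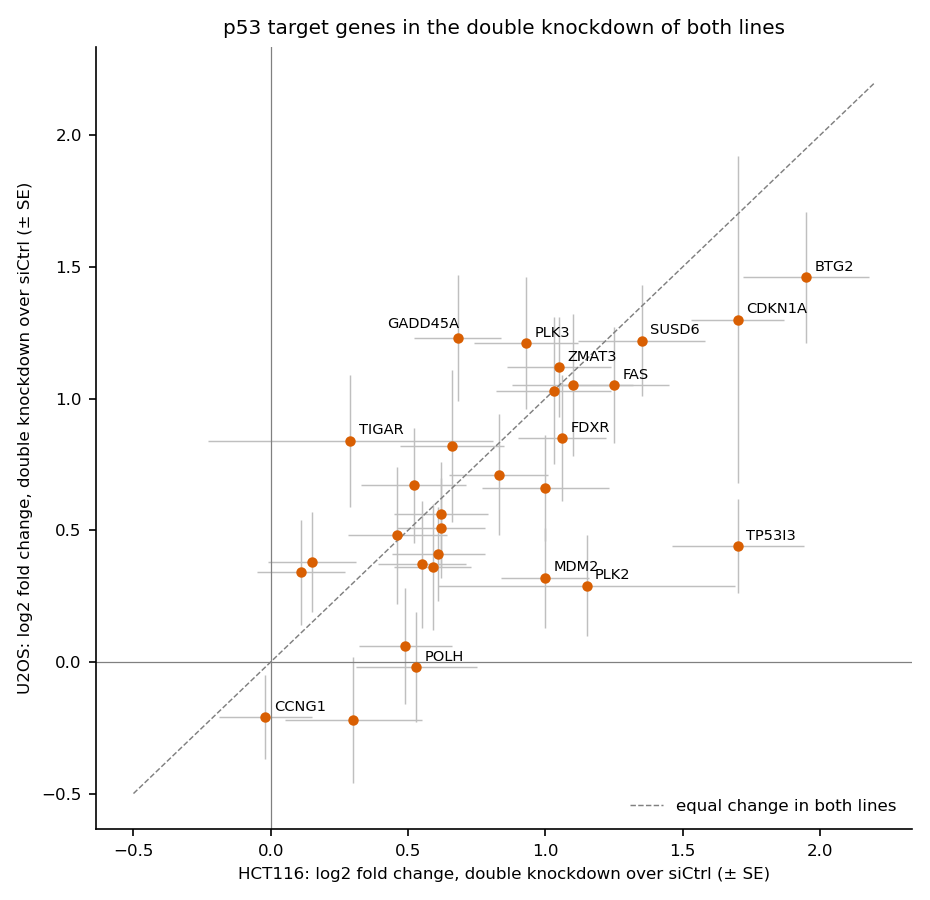
Log2 fold change in the double knockdown of HCT116 (horizontal axis) and U2OS (vertical axis) for the 30 p53 targets listed in both, with bars of ± SE and a dashed line of equal change. TP53I3 lies far below the line (1.70 in HCT116 and 0.44 in U2OS) and is the single gene whose difference passed; CDKN1A has a long vertical bar (SE 0.62).

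Further p53 targets outside the 34, from a list of 66 symbols, were also called higher in part in the double knockdowns. In HCT116, 23 of 60 listed were called higher and 1 lower in the double knockdown (median 0.51), against 2.82% and 4.12% of all genes. Of the single knockdowns in HCT116, the DESeq2 Wald test called 0 of 63 after siMYBL1 (2 higher at an unadjusted p under 0.05) and 1 lower of 59 after siMYBL2, where 0.837% of all genes were lower. At an unadjusted p under 0.05, 10 of the 59 were higher and 2 lower after siMYBL2 (median 0.18). Of all 13387 genes there, 450 were higher and 630 lower at that p. In U2OS, 22 of 60 were called higher and 1 lower in the double knockdown (median 0.52), against 6.55% and 6.06% of all genes. After siMYBL1 in U2OS, 12 of 57 were higher and 1 lower (3.44% and 2.27% of all genes), and after siMYBL2, 5 of 58 were higher and 1 lower (1.69% and 3.51%). SERPINB5, which encodes the tumour suppressor maspin, rose by 1.30 (SE 0.17) in HCT116 cells and 2.63 (SE 0.30) in U2OS in the double knockdowns of the authors' deposited tables. SESN2, a sestrin like SESN1, rose by 1.55 (SE 0.27) after siMYBL1 in U2OS by the authors' deposited table. PTP4A1, a phosphatase, was the gene of this list called lower in 4 comparisons, the siMYBL2 and double knockdowns of both lines, with -1.13 (SE 0.17) in the HCT116 and -1.91 (SE 0.22) in the U2OS double knockdown of the authors' deposited tables.

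**Figure D5:**
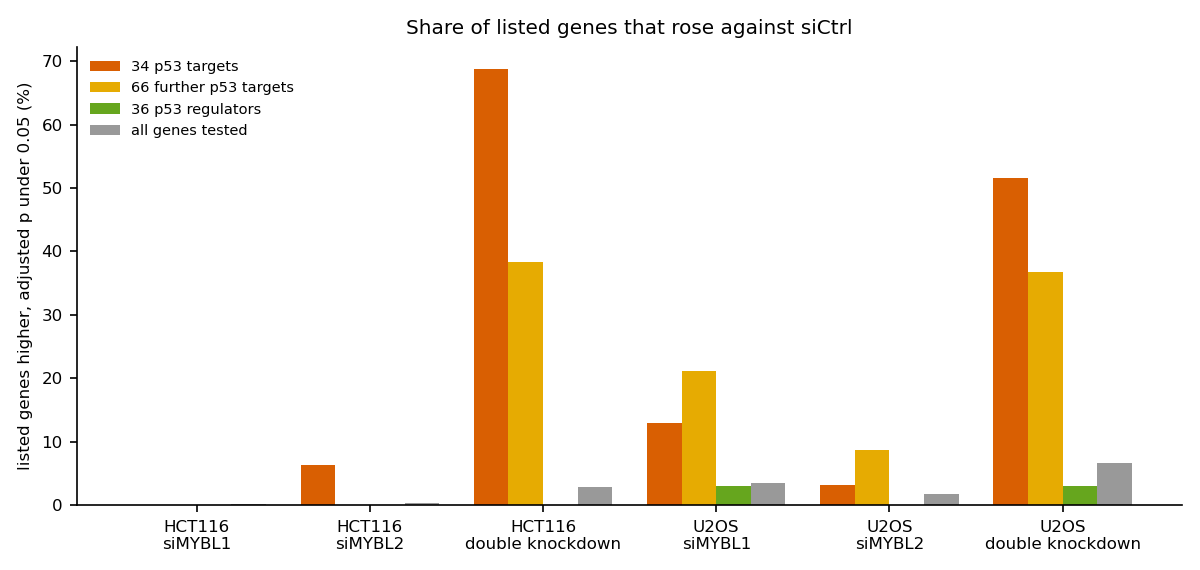
Percentage of listed genes called higher (vertical axis, adjusted p under 0.05) in each of the 6 comparisons with siCtrl, for the 34 p53 targets, 66 further p53 targets, 36 regulators of p53 and all genes tested. The bars of the 34 targets reach 68.8% in the HCT116 and 51.6% in the U2OS double knockdown, above the bars of all genes at 2.82% and 6.55%.

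The regulators of p53, a list of 36 genes, had at most 2 members called in any comparison with siCtrl. It had 0 higher and 2 lower of 35 in the HCT116 double knockdown, where 2.82% and 4.12% of all genes were called. In U2OS, 1 was higher and 1 lower of 34 in the double knockdown (6.55% and 6.06% of all genes) and likewise after siMYBL1 (3.44% and 2.27%). These counts are near or under the shares of all genes, so they show nothing about the list. MDM4, the partner of MDM2 that blocks p53, fell in the HCT116 double knockdown (-0.84, SE 0.21, adjusted p = 0.00207) and stood at -0.17 (SE 0.24) in the U2OS one, by the authors' deposited tables.

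CHEK2, the checkpoint kinase that phosphorylates p53, fell in both double knockdowns, by the authors' deposited tables at -0.74 (SE 0.22) in HCT116 cells and -0.96 (SE 0.22) in U2OS. These 2 were the only regulators called of 35 in the HCT116 double knockdown. In the U2OS double knockdown, RCHY1, the p53 ubiquitin ligase Pirh2, was the other call of 34, at 0.72 (SE 0.24) per the authors' deposited table. After siMYBL1 in U2OS, HIPK2 rose (0.69, SE 0.22) and CHEK1 fell (-0.63, SE 0.20) per the authors' deposited table.

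Lists outside the p53 pathway also had called genes in the double knockdowns. The 13 mitochondrially encoded genes had medians of 0.28, 0.37 and 0.40 after siMYBL1, siMYBL2 and the double knockdown in HCT116, with 4 called higher in the last, where 2.82% of all genes were, and medians of 0.19, 0.19 and 0.13 in U2OS with 0 called by the DESeq2 Wald test. At an unadjusted p under 0.05, 6, 7 and 8 of the 13 were higher in the HCT116 comparisons, in that order, and 1, 3 and 2 in the U2OS ones. Of the 7 epithelial markers listed for the HCT116 double knockdown, 2 were called higher (CDH1 and KRT19) and 0 lower, and of 6 listed for the U2OS one, 0 higher and 1 lower (KRT18). Of the 8 mesenchymal and osteoblast markers listed in U2OS, 4 were called higher (CDH2, COL1A1, FN1 and ALPL) and 1 lower (VIM) in the double knockdown, where 6.55% and 6.06% of all genes were. In U2OS, 1 of these 8 was higher after siMYBL1 (COL1A1) and 1 lower after siMYBL2 (VIM), and in HCT116 the DESeq2 Wald test called 0 of them in any comparison with siCtrl (1 to 3 at an unadjusted p under 0.05). The part of these lists in the values of the p53 targets was not tested. In bulk RNA a change in the share of cells that express a target and a change in its level per cell cannot be told apart.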

How the data were processed

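Total RNA was sequenced in 16 libraries (8 groups of 2). Per the submitters' processing notes, cutadapt 4.4, Salmon 1.10.1 and DESeq2 1.40 with hg38 were used, and the sources used here do not give the annotation release, strand setting or filters. The authors deposited 6 tables, 1 per knockdown and line against siCtrl. Per the file headers they hold the base mean, a signal of normalized counts, the log2 fold change with its SE, the Wald score and the p-value and adjusted p-value from DESeq2. The deposited tables list genes down to a base mean of 4.46 to 40.4. Per the file headers, a TRUE or FALSE column stands beside these, and it was TRUE exactly where the adjusted p was under 0.05 and the log2 change over 0.5 in size.

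The tables were used as deposited, with an adjusted p under 0.05 as the call. Levels were computed from base mean and fold change for equal arms, and the siCtrl level of a member differed at most 1.153-fold between tables of a line. Differences between tables were divided by the root of the summed squared SEs and tested with a 2-sided normal p and the Benjamini-Hochberg adjustment over all shared genes (Python 3.11.15, statsmodels 0.14.6). The shared siCtrl makes this error too large within a line. The method was tested on simulated data with independent normal errors of the deposited SEs. That simulation does not cover the shared siCtrl or the uncertainty of SEs from 2 libraries per group. The tables give no value per library, so no count test was run and the depth is unknown. All 34 members could be named. The plan was to give full statistics for up to 8 with the smallest adjusted p per comparison. Values were planned for others, for MDM4, and for up to 3 regulators and 4 further targets. In the double knockdowns the change, SE and adjusted p are printed for more than 8 members. The values of 1 regulator are not reported here. ACTA2 was named after its values were seen, because it overlaps FAS, as were RHOBTB2, RPLP2 and LSM3, which overlap other members. The members and lists were chosen with earlier results of these data known. No genome of the build was used, so windows of 300 bases replaced a wider planned search. By GENCODE release 29, 16 members share exon sequence with another gene, 15 of them on the opposite strand. Alternatives were other thresholds (0.1 and 0.01), genes in all 6 tables, a base mean of at least 100, centring on the median, the shared siCtrl cancelled and, chosen after seeing the data, the rule of the TRUE column.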

Additional observations from a re-analysis of the deposited data

Results flagged for a closer look

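The response of TP53I3 to the double knockdown differed between the lines by a test of the difference itself. The log2 fold change was lower in U2OS than in HCT116, with a difference of -1.26 (95% interval -1.84 to -0.68, adjusted p = 0.00595), and no other of the 30 members listed in both lines passed that test in any of the 3 knockdowns.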

How the results depend on the processing

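No paired analysis was possible because the deposited tables hold no values per library, and for the same reason leaving out each replicate was not run. The count of p53 targets called ranged from 18 to 25 in the HCT116 double knockdown, from 11 to 18 in the U2OS double knockdown and from 3 to 6 after siMYBL1 in U2OS over the alternatives run, all higher. All genes called in either direction ranged from 506 to 1268, from 1352 to 2688 and from 418 to 1203, in that order. At an adjusted p under 0.01 the count of p53 targets was 1 after siMYBL2 in HCT116 (2 before), 0 after siMYBL2 in U2OS (1 before, and 2 at 0.1) and 6 for the HCT116 double knockdown against siMYBL1 (12 before). All genes called at that threshold numbered 88, 458 and 114, in that order, where 151, 805 and 165 were called before. With the shared siCtrl cancelled in the error, the double knockdown against siMYBL1 and siMYBL2 gave 19 and 11 in HCT116 and 1 and 4 in U2OS. That alternative only lowers the error, and 12, 4, 0 and 0 were called before. Among all genes it called 545, 237, 822 and 642 in either direction, where 165, 83, 227 and 163 were called before. Centring on the median of all genes turned the sign of values near 0: CCNG1 to 0.00098 (HCT116 double knockdown), PLK2 to -0.00017 (siMYBL2, U2OS), XPC to -0.014, TRIAP1 to -0.0038, ZMAT3 to -0.0027, SESN1 to -0.02 and DDB2 to -0.00099 (differences between lines), and FDXR to 0.012 (U2OS, against the sum of single knockdowns). None of these was called before or after. With 2 libraries per group and SEs near 0.2, changes under about 0.5 on the log2 scale were seldom called.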
